A study of Mus musculus with 6 samples.

Results

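Transcripts of 33 genes of peripheral nerve were examined in bulk RNA sequencing of the mouse aorta, out of 29752 genes in each library. The genes were chosen by symbol, as genes of myelinating and non-myelinating Schwann cells and of sympathetic neurons, and all 33 symbols were found. They comprise 7 genes of the myelin sheath, 6 of the scaffold, junctions and node of the myelinating Schwann cell, 3 transcription factors, 8 receptors, adhesion molecules and other genes of Schwann cells, 3 noradrenergic transmitter genes and 6 axonal or neuronal genes. The study compared 3 aortic libraries of PALMD+/- mice, heterozygous for the gene of palmdelphin, with 3 of wild-type mice. All were C57BL/6 mice aged 15 weeks that had eaten a normal diet for 7 weeks from an age of 8 weeks. The labels do not describe the allele, do not say which stretch of aorta was taken or how much surrounding tissue it carried, and leave unstated how many animals gave the RNA of each library, which means that the p-values measure only the spread between these libraries. Libraries are named by genotype and the number in their title, for example PALMD+/- 2 and wild type 3.

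The aorta is supplied by sympathetic nerve fibres that run in the adventitia and release noradrenaline and neuropeptide Y. The cell bodies of these neurons lie in sympathetic ganglia outside the vessel wall, although axons also carry some mRNA. The fibres are wrapped by Schwann cells, most of them non-myelinating around the thin sympathetic axons. Myelinating Schwann cells, which form compact myelin around thicker axons, share with them the lineage factor SOX10 and the calcium-binding protein S100B.

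All 9 neuronal genes were highest in a single library, PALMD+/- 2, and second highest in wild type 3. Of these 9 genes, 7 were at or under 1.06 FPKM (a number of reads divided by gene length and library depth) in each of the other 4 libraries, 2 of each genotype. Most Schwann cell genes were also highest in PALMD+/- 2. Except for Ngfr and Fabp7, they exceeded the highest other library by smaller ratios than these 7 genes did. None of the 15 genes that were high enough to be tested passed the test for a difference between the genotypes (limma, adjusted threshold of 0.05). Without PALMD+/- 2 the difference between the genotypes changed sign for 22 of the 33 genes and became smaller, with the same sign, for 7 others.

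The sequences upstream of the 3 noradrenergic genes are shown because these genes make the sympathetic transmitters and had the same 2 libraries at the top. Th encodes tyrosine hydroxylase, the rate-limiting enzyme of catecholamine synthesis, Dbh encodes dopamine beta-hydroxylase, which makes noradrenaline, and Npy encodes the co-transmitter neuropeptide Y. The 250 bases before the start site are from RefSeq (GRCm38.p6), at chr7:142899996-142900245 on the minus strand for Th, chr2:27165257-27165506 on the plus strand for Dbh and chr6:49822460-49822709 on the plus strand for Npy. Each is written 5′ to 3′ on the gene's own strand. Capitals mark the cAMP response element TGACGTCA, its shorter form TGACG and the homeodomain core ATTA, on either strand, so that a match on the other strand reads CGTCA or TAAT.
Th: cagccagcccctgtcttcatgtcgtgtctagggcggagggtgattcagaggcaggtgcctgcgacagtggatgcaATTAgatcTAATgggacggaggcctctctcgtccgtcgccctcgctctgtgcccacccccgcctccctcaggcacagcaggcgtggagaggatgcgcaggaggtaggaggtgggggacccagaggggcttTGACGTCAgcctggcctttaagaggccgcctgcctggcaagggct
Dbh: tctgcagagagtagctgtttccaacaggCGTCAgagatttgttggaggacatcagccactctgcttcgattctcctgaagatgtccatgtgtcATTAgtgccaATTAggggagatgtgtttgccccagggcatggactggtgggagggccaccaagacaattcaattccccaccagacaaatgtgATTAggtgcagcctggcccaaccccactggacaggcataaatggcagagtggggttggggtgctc
Npy: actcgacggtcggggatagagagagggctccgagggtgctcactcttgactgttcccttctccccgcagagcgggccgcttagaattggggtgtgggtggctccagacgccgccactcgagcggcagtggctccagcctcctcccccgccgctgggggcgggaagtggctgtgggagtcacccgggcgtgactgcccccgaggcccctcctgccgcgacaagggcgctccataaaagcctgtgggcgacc
The Th window held the full element from position -45 to -38, counted back from the start site, and both of its shorter matches lie within it. The full element was found in 1.55% of 32851 promoter windows of the same length in that table (508 windows). The shorter form occurred in 17.8% of the windows, and in Dbh at -222 to -218 on the other strand. ATTA occurred in 54.9% of the windows, with 2 matches in Th and 3 in Dbh. None of these letters were in the Npy window. Of the 33 genes, 22 had an entry in the table. A match describes the sequence and is not evidence of binding.

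The libraries were of similar depth, with 17283951 to 18372131 reads behind the values. Genes of smooth muscle, endothelium, fibroblasts and adipocytes were present in all libraries. Palmd itself was at 5.31, 7.19 and 6.21 FPKM in PALMD+/- 1 to 3 and at 5.49, 7.88 and 10.1 FPKM in wild type 1 to 3, so the groups overlapped (exact two-sided permutation test, p = 0.4). With 3 libraries against 3 this test cannot give a p below 0.1. On log2(FPKM + 1) over the 12620 genes at or above 1 FPKM in 3 or more libraries, PALMD+/- 2 had a mean Pearson correlation of 0.930 with the other libraries. It was 0.960 to 0.971 for each of the others, across genes that are not independent of each other.

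Th (ENSMUSG00000000214, GRCm38 chromosome 7, 142892752 to 142931128) had 0, 66.7 and 0.324 FPKM in PALMD+/- 1 to 3 and 0.116, 0 and 3.81 FPKM in wild type 1 to 3. This span, from GENCODE, reaches upstream of the RefSeq start site used for the sequence. The reads recovered from these values were 0, 2725 and 14 in the PALMD+/- libraries and 5, 0 and 162 in the wild-type libraries, where 3 reads, the limit that a count of 0 allows, correspond to 0.0702 FPKM. Such limits cover counting error only. In each genotype 1 library had no Th read and 1 library held nearly all of them, so the groups overlapped.

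Dbh (ENSMUSG00000000889, chromosome 2, 27165233 to 27183200) had 0.0203, 120.4 and 0.407 FPKM in the PALMD+/- libraries and 0.346, 0 and 5.88 FPKM in the wild-type libraries. Npy (ENSMUSG00000029819, chromosome 6, 49822710 to 49829507) had 0.0968, 208 and 1.06 FPKM in the PALMD+/- libraries and 0.677, 0.0962 and 21.4 FPKM in the wild-type libraries. The order of the libraries was the same at the top for all 3 genes, and in each gene the highest and the second highest library belonged to different genotypes. In PALMD+/- 2 and wild type 3, the 2 libraries with many reads of these genes, the level of Dbh over that of Th was 1.81 and 1.54, and that of Npy over Th was 3.13 and 5.62. PALMD+/- 2 exceeded wild type 3 by a ratio of 17.5 for Th, 20.5 for Dbh and 9.75 for Npy.

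The axonal genes had the same highest and second highest library, and all but Uchl1 and Stmn2 were under 1 FPKM in the other 4 libraries. Prph encodes peripherin, the intermediate filament of peripheral neurons, and had 0.294, 67.9 and 0.528 FPKM in the PALMD+/- libraries and 0.733, 0.175 and 4.41 FPKM in the wild-type libraries. Snap25, a component of the vesicle fusion machinery at the nerve terminal, had 0, 13.7 and 0.0242 FPKM in the PALMD+/- libraries and 0.0322, 0.0160 and 0.965 FPKM in the wild-type libraries. For Snap25 the 4 libraries other than PALMD+/- 2 and wild type 3 held 0 to 4 reads each.

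The neurofilament light chain Nefl had 0, 10.6 and 0.0324 FPKM in the PALMD+/- libraries and 0.0162, 0 and 0.936 FPKM in the wild-type libraries. The medium chain Nefm had 0.00947, 7.13 and 0.0189 FPKM in the PALMD+/- libraries and 0.0189, 0 and 0.490 FPKM in the wild-type libraries. Exons of these neighbouring genes overlap on opposite strands, and the library kit is not stated to keep strand, so some reads may be shared between them. Over the 7 neuronal genes that were under 1 FPKM in wild type 1 and 2, the level in PALMD+/- 2 over that in wild type 3 ranged from 9.75 to 20.5, with a median of 14.6.

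Uchl1 and Stmn2 differed from this pattern in their baseline. Uchl1, a ubiquitin hydrolase abundant in neurons, had 20.9, 82.4 and 20.8 FPKM in the PALMD+/- libraries and 20.8, 22.6 and 23.4 FPKM in the wild-type libraries. Stmn2, a microtubule regulator of growing axons, had 5.85, 22.7 and 6.71 FPKM in the PALMD+/- libraries and 7.01, 5.40 and 7.37 FPKM in the wild-type libraries. The 5 libraries other than PALMD+/- 2 lay close together for both genes, and PALMD+/- 2 exceeded the highest of them by a ratio of 3.51 for Uchl1 and 3.08 for Stmn2.

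**Figure D1:**
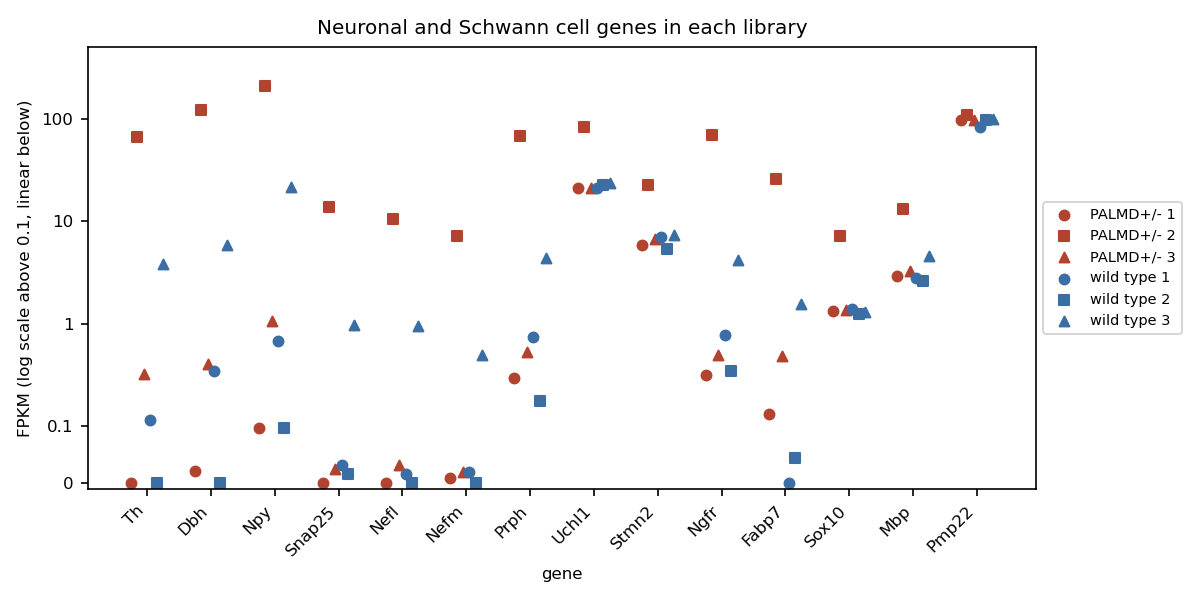
Level of 14 nerve genes in FPKM (logarithmic above 0.1, linear below), with 1 point per library, PALMD+/- in red and wild type in blue. PALMD+/- 2 (red squares) is the highest point for every gene shown, and wild type 3 (blue triangles) is second for the neuronal genes, Ngfr and Fabp7, while Sox10 in wild type 3 (1.31 FPKM) lies among the other libraries.

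The plot of single genes by library shows which Schwann cell genes shared this pattern. Ngfr (ENSMUSG00000000120, chromosome 11, 95568818 to 95587735) encodes the p75 neurotrophin receptor of sympathetic neurons and of immature and non-myelinating Schwann cells. It had 0.318, 69.1 and 0.493 FPKM in the PALMD+/- libraries and 0.778, 0.347 and 4.21 FPKM in the wild-type libraries. Fabp7, a fatty acid-binding protein of immature Schwann cells and of the satellite glia of ganglia, had 0.131, 25.5 and 0.482 FPKM in the PALMD+/- libraries and 0, 0.0435 and 1.55 FPKM in the wild-type libraries. PALMD+/- 2 exceeded wild type 3 by the same ratio of 16.4 for both genes, within the range of the neuronal genes.

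The transcription factors had lower ratios. Sox10 (ENSMUSG00000033006, chromosome 15, 79154908 to 79165240), the lineage factor of Schwann cells, had 1.31, 7.19 and 1.35 FPKM in the PALMD+/- libraries and 1.39, 1.24 and 1.31 FPKM in the wild-type libraries. Foxd3, a factor of neural crest and Schwann cell precursors, had 0.283, 2.27 and 0.424 FPKM in the PALMD+/- libraries and 0.377, 0.328 and 0.478 FPKM in the wild-type libraries. For both, the 5 other libraries lay close together and wild type 3 did not stand apart. Egr4 had 2 reads in wild type 1 and none elsewhere.

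Among the other receptors and adhesion molecules, Erbb3, the neuregulin receptor of Schwann cells, had 0.382, 2.66 and 0.446 FPKM in the PALMD+/- libraries and 0.864, 0.642 and 0.914 FPKM in the wild-type libraries. Gfra3, the artemin receptor, had 1.15, 3.43 and 1.48 FPKM in the PALMD+/- libraries and 1.26, 1.01 and 1.59 FPKM in the wild-type libraries. Without PALMD+/- 2, both remaining PALMD+/- libraries were below all 3 wild-type libraries for Erbb3, which did not reach the level required for the test, and the groups overlapped for Gfra3. In the same 5 libraries, 33.1% of all genes tested had groups free of overlap, in either direction.

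S100b had 4.13, 11.3 and 6.05 FPKM in the PALMD+/- libraries and 5.42, 7.01 and 6.36 FPKM in the wild-type libraries. L1cam, an adhesion molecule of axons and non-myelinating Schwann cells, had 4.47, 11.4 and 5.43 FPKM in the PALMD+/- libraries and 6.00, 4.45 and 6.16 FPKM in the wild-type libraries. Scn7a, an atypical sodium channel of non-myelinating Schwann cells, had 8.63, 17.4 and 7.98 FPKM in the PALMD+/- libraries and 9.31, 7.64 and 10.0 FPKM in the wild-type libraries. For these genes PALMD+/- 2 exceeded the highest other library by ratios of 1.62, 1.85 and 1.74, in that order. These ratios were below those of all 9 neuronal genes, of which Stmn2 had the lowest, 3.08.

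Ncam1 (ENSMUSG00000039542, chromosome 9, 49502136 to 49798925) was the exception of this group. It encodes the neural cell adhesion molecule, which non-myelinating Schwann cells and axons carry, and had 21.3, 13.8 and 18.9 FPKM in the PALMD+/- libraries and 16.4, 14.2 and 10.2 FPKM in the wild-type libraries. PALMD+/- 2 was the lowest of its genotype and wild type 3 the lowest of all.

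Genes of myelin were present at low levels except Pmp22. Mbp, which encodes a major protein of compact myelin, had 2.91, 13.1 and 3.25 FPKM in the PALMD+/- libraries and 2.75, 2.61 and 4.61 FPKM in the wild-type libraries. Cnp, an enzyme of non-compact myelin, had 5.48, 10.7 and 5.90 FPKM in the PALMD+/- libraries and 5.67, 5.31 and 6.09 FPKM in the wild-type libraries, and its exons overlap those of Dnajc7 on the opposite strand. Both were highest in PALMD+/- 2 and second highest in wild type 3, which exceeded the highest of the other 4 libraries by a ratio of 1.42 for Mbp and 1.03 for Cnp.

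Mal, a lipid raft protein of myelin and epithelia, had 3.06, 4.17 and 2.68 FPKM in the PALMD+/- libraries and 2.86, 2.55 and 3.40 FPKM in the wild-type libraries. Pmp22, a protein of compact myelin that many other cells also make, had 97.5, 109 and 97.7 FPKM in the PALMD+/- libraries and 82.9, 97.0 and 98.8 FPKM in the wild-type libraries. Per length, the level of Pmp22 was at least 8.28 times that of Mbp in every library, and its highest library was within a ratio of 1.31 of its lowest. A further 3 sheath genes stayed under 1 FPKM, namely Mag and Ncmap, both highest in PALMD+/- 2 at 0.568 and 0.883 FPKM, and Pmp2, with 1 read in all libraries together.

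Of the genes of the myelinating Schwann cell's scaffold, junctions and node, Prx, the periaxin that links the sheath to the basal lamina, had 3.09, 3.29 and 2.56 FPKM in the PALMD+/- libraries and 3.30, 2.43 and 2.59 FPKM in the wild-type libraries. Its partner Drp2 had 0.275, 1.10 and 0.243 FPKM in the PALMD+/- libraries and 0.211, 0.0827 and 0.357 FPKM in the wild-type libraries. The partners therefore differed, with Prx flat over the libraries and Drp2 highest in PALMD+/- 2 by a ratio of 3.07. The connexin gene Gjc3 had 0.126, 1.86 and 0.101 FPKM in the PALMD+/- libraries and 0.352, 0.09996 and 0.395 FPKM in the wild-type libraries.

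Gldn, which encodes gliomedin of the node of Ranvier, had 2.52, 1.64 and 2.29 FPKM in the PALMD+/- libraries and 2.95, 2.52 and 1.67 FPKM in the wild-type libraries. It was the reverse of most of the 33 genes, being lowest in PALMD+/- 2 and second lowest in wild type 3. Cldn19, a tight junction gene, was highest in PALMD+/- 2 at 0.679 FPKM and at or under 0.143 FPKM elsewhere, and the connexin gene Gjb1 held 0 to 3 reads per library. Exons of Prx, Ncam1 and Uchl1 overlap those of Gm15541, Gm11149 and Uchl1os on the opposite strand, which were at most 0.381 FPKM in any library, and exons of L1cam overlap those of Arhgap4 on the same strand.

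**Figure D2:**
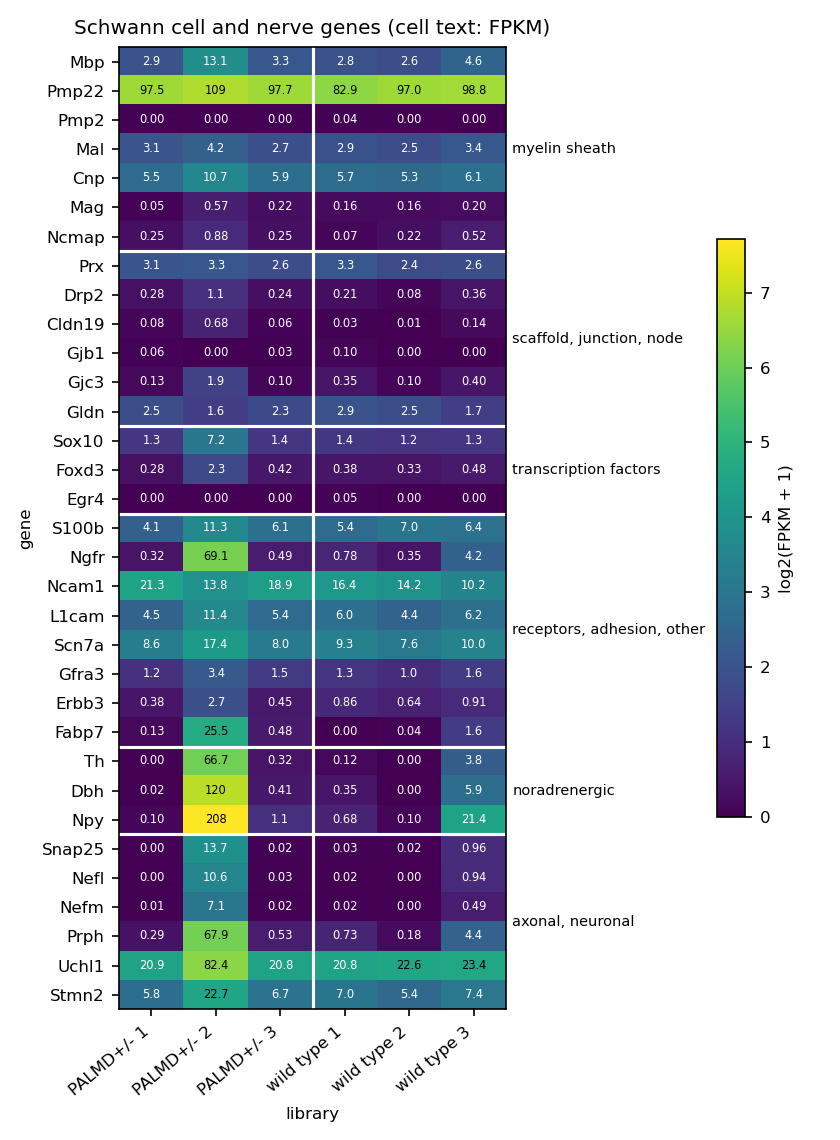
FPKM of each of the 33 genes (printed) in the 3 PALMD+/- and 3 wild-type libraries, coloured by log2(FPKM + 1) and grouped by role. The column of PALMD+/- 2 is the brightest for the noradrenergic and axonal genes, for example 208 FPKM for Npy, and for Ngfr and Fabp7.

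As the heat map of all 33 genes shows, 27 reached 1 FPKM in at least 1 library. PALMD+/- 2 was the highest of the 6 libraries for 24 of these 27 genes, against 29.4% of the 14245 genes at that level in the files. It was at least 2 times the highest of the other 5 libraries for 18 of 27 genes, against 5.44% of all, and at least 5 times for 10 of 27, against 2.25% of all. Leaving it aside, wild type 3 was the highest of the other 5 libraries for 22 of 27 genes, against 23.4% of all, and at least 2 times the highest of the remaining 4 for 9 of 27, against 2.23% of all. These 9 were 7 of the neuronal genes with Ngfr and Fabp7. Of the 27 genes, 7 (Drp2, Gjc3, Foxd3, Erbb3, Snap25, Nefl and Nefm) reached 1 FPKM in PALMD+/- 2 alone, so the level required fixed that library as their highest. Of the 20 genes that reached it in another library, PALMD+/- 2 was the highest for 17, against 25.9% of 13580 genes so chosen, at least 2 times the highest of the others for 11, against 2.31%, and at least 5 times for 7, against 0.39%. Leaving PALMD+/- 2 aside, wild type 3 was the highest for 15 of these 20 genes, against 22.2%. It was at least 2 times the highest of the remaining 4 for 6, against 1.22%. Outside PALMD+/- 2, Th, Dbh, Prph, Ngfr and Fabp7 reached 1 FPKM in wild type 3 alone, so the level required fixed it as their highest there. These shares describe the libraries and were not tested, because the genes were chosen with such results known.

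Most of the other nerve genes examined had the same highest library. Of 30 further genes of sympathetic, sensory and parasympathetic nerve, 14 reached 1 FPKM in a library other than PALMD+/- 2. Of these 14 genes, 13 were highest in PALMD+/- 2, against 25.9% of all genes so chosen. The exception was Stx1a, a syntaxin of the nerve terminal, with 27.3, 20.8 and 24.9 FPKM in the PALMD+/- libraries and 23.0, 22.8 and 18.1 FPKM in the wild-type libraries. Some sensory and parasympathetic genes had few or no reads. The neuropeptide genes Calca and Vip had 1 and 2 reads in PALMD+/- 2 and 5 and 10 reads in wild type 3, the cholinergic genes Chat and Slc18a3 were at 0 in PALMD+/- 2 and at most 0.0230 FPKM in any library, and Calcb and Slc17a6 were at 0 in every library. Other genes of the same list had many reads in PALMD+/- 2. Scn9a had 0, 326 and 0 reads in the PALMD+/- libraries and 1, 0 and 9 reads in the wild-type libraries. Nefh had 0, 270 and 8 reads in the PALMD+/- libraries and 2, 2 and 24 reads in the wild-type libraries. The noradrenaline transporter Slc6a2 had 1.59, 67.4 and 2.05 FPKM in the PALMD+/- libraries and 0.974, 0.718 and 5.48 FPKM in the wild-type libraries. Phox2a, a transcription factor of noradrenergic neurons that acts in the cell body, had 0, 421 and 1 reads in the PALMD+/- libraries and 2, 2 and 18 reads in the wild-type libraries. Summed over the transcription factor genes Phox2a and Hand2 and the RNA-binding protein gene Elavl4, listed here as ganglion genes, the level was 0.303, 22.4 and 0.327 FPKM in the PALMD+/- libraries and 0.310, 0.216 and 1.24 FPKM in the wild-type libraries. The sum in PALMD+/- 2 was 18.1 times that in wild type 3. By gene this ratio was 24.4 for Phox2a, 13.2 for Hand2 and 17.2 for Elavl4, on 18, 25 and 15 reads in wild type 3. Over the 7 neuronal genes it ranged from 9.75 to 20.5, so Phox2a lay above that range. Slc18a2, the vesicular monoamine transporter, which is plotted with these genes and also counted among the sympathetic nerve genes, had 1.09, 28.8 and 0.691 FPKM in the PALMD+/- libraries and 1.21, 0.644 and 2.56 FPKM in the wild-type libraries.

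Chromaffin cells of the adrenal medulla and paraganglia also make catecholamines. Pnmt, the enzyme that makes adrenaline and defines the adrenaline-making chromaffin cell, had 0.475, 0.201 and 0.332 FPKM in the PALMD+/- libraries and 0.0474, 0.142 and 0 FPKM in the wild-type libraries, and was not highest in PALMD+/- 2. The other 3 genes of that list (Chga, Chgb and Slc18a1, the first 2 also made by neurons) were highest there, so the list summed to 0.614, 27.1 and 0.871 FPKM in the PALMD+/- libraries and 0.396, 0.261 and 2.26 FPKM in the wild-type libraries. Slc18a1 had 0, 128 and 4 reads in the PALMD+/- libraries and 1, 2 and 3 reads in the wild-type libraries. Its level in PALMD+/- 2 was 44.5 times that in wild type 3. Myelin of the central nervous system was not evident, since 5 oligodendrocyte genes summed to at most 0.440 FPKM in the PALMD+/- libraries and at most 0.776 FPKM in the wild-type libraries, with Opalin at 0 in all.

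Further Schwann cell genes did not all have their highest level in PALMD+/- 2. Of 35 such genes, 23 were highest and 7 were lowest in PALMD+/- 2. Of the 21 that reached 1 FPKM in another library, 11 (52.4%) were highest and 6 (28.6%) were lowest there. Of the 13580 genes so chosen in the files, 25.9% were highest and 32.8% were lowest there. The share of these genes that was lowest was thus near that of all genes. The sum over the 35 genes was 422, 381 and 430.2 FPKM in the PALMD+/- libraries and 399, 390.3 and 390.2 FPKM in the wild-type libraries, and so was lowest in PALMD+/- 2. Its largest values were those of Cd9, Cd81 and Dag1, at 129, 101 and 71.2 FPKM in PALMD+/- 1. In PALMD+/- 2 they were at 79.1, 71.1 and 67.7 FPKM, so the sum weighs these genes most and does not describe the list gene by gene. Cdh19, a cadherin of Schwann cell precursors, had 0.972, 6.23 and 1.09 FPKM in the PALMD+/- libraries and 1.59, 1.11 and 2.26 FPKM in the wild-type libraries. Dhh, a hedgehog ligand that Schwann cells make, had 22.1, 3.57 and 19.0 FPKM in the PALMD+/- libraries and 21.7, 27.4 and 24.9 FPKM in the wild-type libraries, and was lowest in PALMD+/- 2. The integrin chain Itgb4 was lowest there too, with 20.3, 10.0 and 21.8 FPKM in the PALMD+/- libraries and 20.6, 22.4 and 22.5 FPKM in the wild-type libraries. Both are also made by cells outside nerve. Summed over 8 Schwann cell markers (Sox10, S100b, Cdh19, Erbb3, Foxd3, Ngfr, Gfra3 and Prx), the level was 11.6, 105 and 13.9 FPKM in the PALMD+/- libraries and 15.0, 14.1 and 19.7 FPKM in the wild-type libraries. Ngfr, which sympathetic neurons also make, gave 69.1 of the 105 FPKM in PALMD+/- 2. Without Ngfr the sum was 11.3, 36.4 and 13.4 FPKM in the PALMD+/- libraries and 14.2, 13.8 and 15.5 FPKM in the wild-type libraries, and its ratio of PALMD+/- 2 over wild type 3 was 2.35, against 5.35 with Ngfr.

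Markers of other tissues also differed between the libraries, and not all of them followed both PALMD+/- 2 and wild type 3. Summed over 8 white adipocyte genes, the level was 1409.8, 4646 and 1914 FPKM in PALMD+/- 1 to 3 and 1551, 2500.5 and 3550.2 FPKM in wild type 1 to 3. PALMD+/- 2 was the highest and wild type 3 the second highest of all libraries, as for the neuronal genes. Leaving PALMD+/- 2 aside, wild type 3 was the highest for 8 of the 8 genes. Over 6 brown adipocyte genes it was 68.9, 1234 and 276 FPKM in the PALMD+/- libraries and 219, 995 and 796 FPKM in the wild-type libraries. Wild type 2 held more of the brown adipocyte genes than wild type 3, at a sympathetic nerve sum of 1.51 FPKM against 39.6 FPKM in wild type 3, so the brown adipocyte and nerve sums did not keep the same order over these libraries.

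Summed over 6 smooth muscle genes, the level was 9953, 4721 and 10179 FPKM in the PALMD+/- libraries and 9940.4, 8764 and 7062 FPKM in the wild-type libraries. Over 6 endothelial genes it was 673, 186 and 647 FPKM in the PALMD+/- libraries and 726, 663 and 662 FPKM in the wild-type libraries, with 5 of the 6 genes lowest in PALMD+/- 2. The exception was Kdr, a receptor of vascular endothelial growth factor, which was highest in PALMD+/- 2 at 14.6 FPKM and 3.43 to 5.42 FPKM elsewhere. Over 6 fibroblast genes it was 1199, 920.4 and 1435 FPKM in the PALMD+/- libraries and 1005, 1118 and 1191 FPKM in the wild-type libraries. PALMD+/- 2 was the lowest library for these 3 sums. Over 5 macrophage genes the sum was 60.6, 60.5 and 68.5 FPKM in the PALMD+/- libraries and 54.7, 55.9 and 58.4 FPKM in the wild-type libraries, and the sums of skeletal muscle and melanocyte genes were at most 8.24 FPKM in any library. Whether the values of these marker lists have a part in the nerve gene values was not tested, and in bulk RNA fewer cells of a type and less RNA per cell cannot be told apart.

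**Figure D3:**
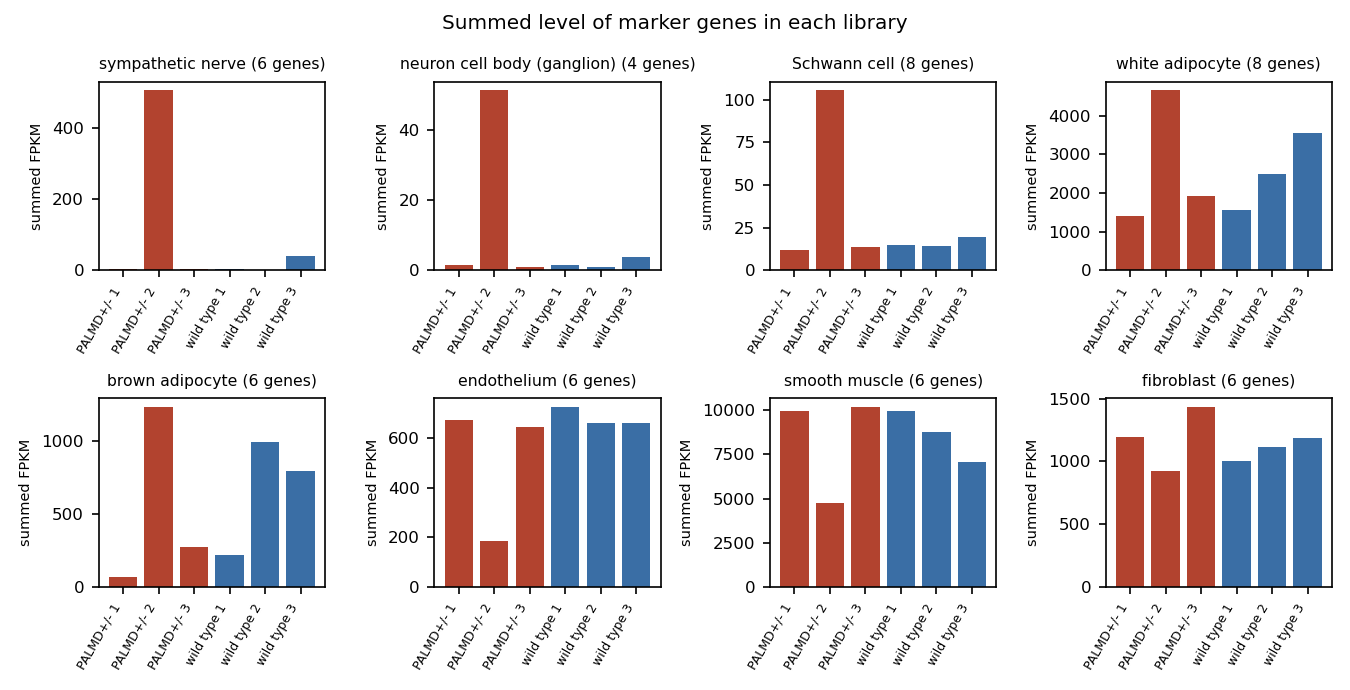
Summed FPKM of marker genes in each library, PALMD+/- in red and wild type in blue, with 1 bar per library. The sympathetic nerve sum is 504 FPKM in PALMD+/- 2 and 39.6 FPKM in wild type 3 and at most 4.56 FPKM elsewhere, and the smooth muscle and endothelial bars are lowest in PALMD+/- 2.

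The bars of summed markers show that the sympathetic nerve, ganglion and 8-gene Schwann cell sums had a common highest library, whereas endothelium and smooth muscle had their lowest level there. The sympathetic nerve and ganglion sums share Slc18a2 and Phox2a. The sympathetic nerve sum includes Th, Dbh and Npy, and the Schwann cell sum includes 7 of the 33 genes, so they are not separate evidence for those genes.

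The comparison of the genotypes asked whether nerve genes differ between aortas of PALMD+/- and wild-type mice. Each gene was tested with limma on log2(FPKM + 1), as PALMD+/- minus wild type, among the 12620 genes at or above 1 FPKM in 3 or more libraries. Of the 33 genes, 15 were in that test and 18 were below its minimum. None of the 15 passed an adjusted p of 0.05, as none of all genes tested did (0%). At an unadjusted p under 0.05, 0 of the 15 genes were counted, against 820 of all genes tested (6.5%). The values of the genotypes overlapped for all 15 genes, so 0 of 15 were free of overlap, against 12.9% of all genes tested. Adjusted p-values of the 15 genes ranged from 0.846 to 0.987.

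Differences were wide in error wherever PALMD+/- 2 stood apart. Npy was 1.18 higher on the log2 scale in PALMD+/- libraries with an SE of 2.16, at a level of 69.9 ± 120.0 FPKM in PALMD+/- libraries and 7.39 ± 12.1 FPKM in wild-type libraries (SD, n = 3 each). Sox10 differed by 0.61 with an SE of 0.48, Mbp by 0.54 with an SE of 0.50, Uchl1 by 0.55 with an SE of 0.52 and Stmn2 by 0.51 with an SE of 0.47. The smallest adjusted p belonged to Ncam1, which differed by 0.38 with an SE of 0.22 (limma, adjusted p = 0.846). The 95% interval of the Npy difference ran from -4.03 to 6.38, so neither a large increase nor a large decrease was outside it. For Pmp22, with little spread, the difference was 0.13 and its interval -0.19 to 0.45.

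Over all 33 genes the mean of log2(FPKM + 1) was higher in PALMD+/- libraries for 30 and lower for 3, with a median difference of 0.30. Over the 27132 genes with a value above 0 it was higher for 15623 and lower for 11509, with a median of 0.01. Without PALMD+/- 2 it was higher for 10 of the 33 genes and lower for 23, with a median of -0.05. Among the 27132 genes it was then higher for 13755 and lower for 12472. Without both PALMD+/- 2 and wild type 3 it was higher for 18 of the 33 genes and lower for 15, with a median of 0.01. Among the 27132 genes it was then higher for 14034 and lower for 11483. By role, the median difference of the noradrenergic genes was 1.35 with all libraries, -0.81 without PALMD+/- 2 and 0.12 without both. For the axonal genes it was 0.84 with all libraries, -0.24 without PALMD+/- 2 and -0.01 without both.

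Medians of the Schwann cell groups moved less when these libraries were left out, but some of them rest on genes with almost no reads. The median difference of the myelin sheath genes was 0.13 with all libraries, -0.02 without PALMD+/- 2 and 0.06 without both. That of the receptors, adhesion molecules and other Schwann cell genes was 0.28 with all libraries, -0.11 without PALMD+/- 2 and -0.04 without both. For the 3 transcription factors it was 0.38 with all libraries and -0.02 without PALMD+/- 2, and for the scaffold, junction and node genes it was 0.16 with all libraries and 0.02 without PALMD+/- 2. The -0.02 of the sheath genes is the value of Pmp2, which had 1 read in all libraries together. That of the transcription factors is the value of Egr4, with 2 reads in wild type 1 and none elsewhere. The 0.02 of the scaffold genes lies between the values of Prx and of Gjb1, which held 0 to 3 reads per library.

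**Figure D4:**
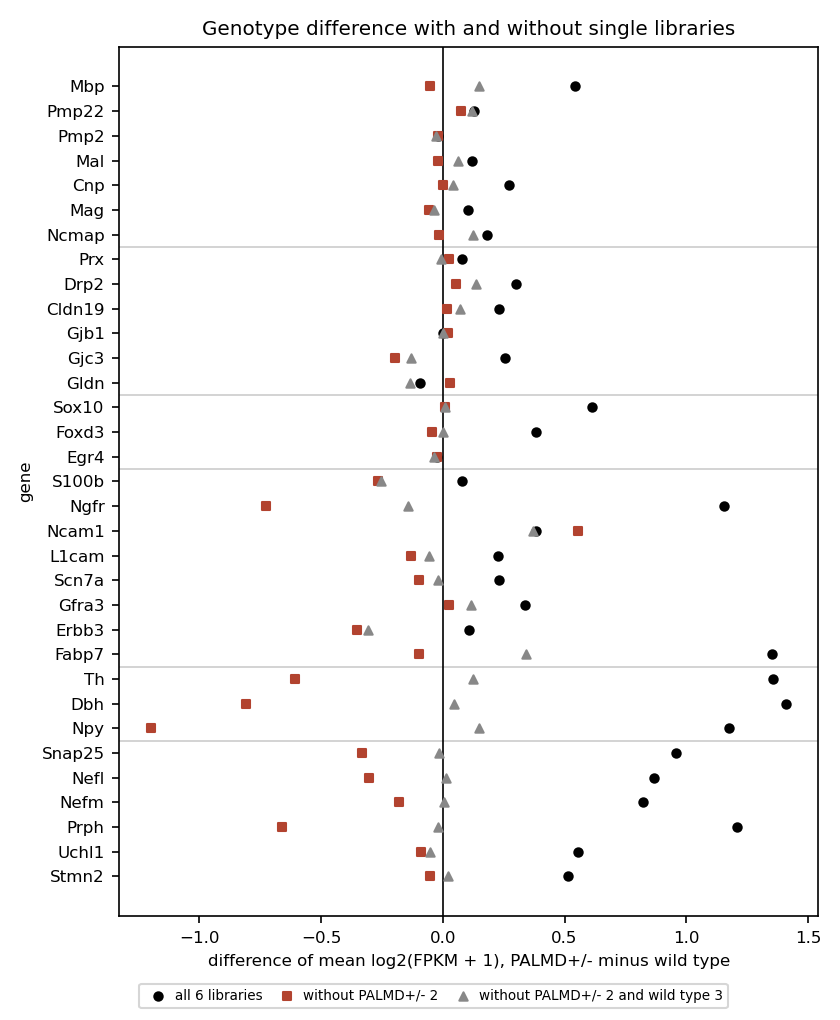
Difference in mean log2(FPKM + 1), PALMD+/- minus wild type, for each of the 33 genes with all 6 libraries (circles), without PALMD+/- 2 (squares) and without both PALMD+/- 2 and wild type 3 (triangles). The noradrenergic and axonal genes lie right of 0 with all libraries, left of it without PALMD+/- 2, and near it without both, while Ncam1 stays on the right.

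The plot of differences with and without these libraries singles out Ncam1. Without PALMD+/- 2, 0 of the 15 tested genes passed the adjusted threshold, against 0% of all genes tested, and 1 of 15 had an unadjusted p under 0.05, against 14% of all. That gene was Ncam1, 0.55 higher in PALMD+/- libraries with an SE of 0.19 (limma, adjusted p = 0.324). It was also the only one of the 15 whose genotypes did not overlap in these 5 libraries, against 33.1% of all genes tested, and 1 of 15 is below that share. Its exact permutation p with all 6 libraries was 0.3.

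Among nerve genes outside the 33, 0 of 18 tested Schwann cell genes, 0 of 10 tested nerve genes and 0 of 6 tested growth and guidance factors passed the threshold. The median log2 difference of the nerve genes with a value above 0 was 0.53 with all libraries and -0.05 without PALMD+/- 2, that of the Schwann cell genes was 0.10 with all libraries and -0.04 without PALMD+/- 2, and that of the factors was 0.03 with all libraries and 0.16 without PALMD+/- 2. The smallest p in the Schwann cell list belonged to Egr2, the transcription factor of myelination, with 1.51, 1.21 and 1.47 FPKM in the PALMD+/- libraries and 2.29, 2.05 and 2.66 FPKM in the wild-type libraries. Its genotypes did not overlap, as was the case for 12.9% of all genes tested, in either direction. Its log2 difference was -0.47 with an SE of 0.12 (limma, adjusted p = 0.576). Without PALMD+/- 2 the difference was -0.42 (limma, adjusted p = 0.304). Mpzl1 differed by 0.37 with an SE of 0.10 (adjusted p = 0.576) and the laminin chain Lama2 by 0.37 with an SE of 0.11 (adjusted p = 0.616), both in a positive direction. Neither is restricted to nerve, and the genotypes did not overlap for either.

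In the nerve list, the vesicle protein Vamp2 differed by 0.30 with an SE of 0.11 (limma, adjusted p = 0.731), the axonal microtubule protein Map1b by 0.29 with an SE of 0.22 (adjusted p = 0.899) and the growth cone protein Gap43 by 1.38 with an SE of 1.07 (adjusted p = 0.913). The genotypes did not overlap for Vamp2 either. Gap43 shared the pattern of the neuronal genes, with 2.84, 52.1 and 2.84 FPKM in the PALMD+/- libraries and 1.47, 1.54 and 6.09 FPKM in the wild-type libraries. Gfra2, a receptor of neurturin, differed by 0.32 with an SE of 0.18 and the receptor Ntrk3 by 0.25 with an SE of 0.14 (limma, adjusted p = 0.834 and 0.843). The neurotrophin Ntf3 had a difference of -0.12 with an SE of 0.26 (limma, adjusted p = 0.970).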

How the data were processed

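Polyadenylated RNA of mouse aorta was sequenced in 3 PALMD+/- and 3 wild-type libraries, per the labels' protocols. The deposited files hold FPKM values calculated by the authors for 29752 genes. The unit was read from the values, and whether single reads or fragments were counted is not stated. Per the submitters' processing notes, the build was GRCm38 and the tools included TopHat2, Bowtie2 2.2.3 and HISAT2 2.1.0, without a role for each. The counting step is not given in the sources used here. Multiplied by the exon length of the gene in GENCODE M21 (29687 identifiers matched), 94.5% to 94.8% of the values under 50 reads were whole multiples of 1 read, within 0.01 reads, which gave the reads quoted. Gene coordinates are from that annotation.

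Values were tested as log2(FPKM + 1) with limma 3.58.1 (R 4.3.3) and a mean-variance trend, PALMD+/- minus wild type. The 12620 genes at or above 1 FPKM in 3 or more libraries entered the fit, with Benjamini-Hochberg adjustment and a threshold of 0.05. This scale understates changes of low genes. A count model would have been used for counts. The procedure was tested on simulated data. An exact permutation test (two-sided) was used for single values. Alternatives were other filters, pseudocounts and scalings, limma voom on the recovered reads, a block for the replicate number, and leaving out libraries, of which leaving out PALMD+/- 2 together with wild type 3 was chosen after seeing the data, as were the counts that set PALMD+/- 2 aside when choosing genes by level and the sums without Ngfr or Slc18a2. Column headers inside the files number the PALMD+/- libraries differently from the titles, and the titles were used. The 33 genes, the other gene lists and the promoters shown were chosen with earlier results of these data known. The text names all 33 genes, Palmd, 3 genes of each further list, those of smallest p, and the markers of Schwann cells and sympathetic nerve. Some genes of these further lists are not reported here and were left out of their counts and sums. Calca, Calcb, Cd9, Cd81, Chat, Dag1, Dhh, Elavl4, Hand2, Itgb4, Kdr, Nefh, Pnmt, Scn9a, Slc17a6, Slc18a1, Slc18a3, Stx1a and Vip were picked to be described after their values were seen. Figures were drawn with matplotlib 3.10.9 in Python 3.11.15.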

Additional observations from a re-analysis of the deposited data

How the results depend on the processing

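No gene of the 33 passed the adjusted threshold under any alternative. Over all genes the count was 0 with all libraries (820 at an unadjusted p under 0.05, and 851 with limma voom) and 0 to 1 when 1 library was left out. Unadjusted counts were 1762 without PALMD+/- 2 and 432 without wild type 3. The direction of all 15 tested genes was kept under the other filters, the pseudocount of 0.1, both scalings, the block and voom. It was reversed for 9 of 15 without PALMD+/- 2 and for 2 of 15, Gldn and S100b, without wild type 1, and for none without any other single library. Leaving out 1 library at a time, the log2 difference ranged from -0.0544 to 0.87 for Mbp, from -0.0203 to 0.22 for Mal, from -0.25 to 0.0282 for Gldn, from -0.27 to 0.37 for S100b, from -0.13 to 0.46 for L1cam, from -0.10 to 0.42 for Scn7a, from -1.20 to 2.59 for Npy, from -0.0886 to 0.88 for Uchl1 and from -0.0542 to 0.84 for Stmn2. Without both PALMD+/- 2 and wild type 3 it was reversed for Prx (-0.0077), S100b (-0.25), L1cam (-0.0577), Scn7a (-0.0215) and Uchl1 (-0.0526). The cause was not tested.

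Of the same-numbered libraries, only those numbered 1 deviated together (correlations of 0.508, -0.0877 and -0.342 for numbers 1 to 3), so the numbers were not read as pairs. The highest correlation between the genotypes was 0.551, for PALMD+/- 2 with wild type 3. With the replicate number as a block, 0 genes and 0 of the 33 were called and 738 genes had an unadjusted p under 0.05. Depth limits the neuronal genes in the 4 libraries with few of their reads, and the number of libraries limits every comparison.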
